A study of Mus musculus with 12 samples.

Results

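The genes described here are 7 genes of thyroid hormone metabolism and action, Dio1, Dio2, Thra, Thrb, Thrsp, Hr and Crym, which were taken by symbol from the 25239 genes of a count table of mouse brain and liver. All 7 were found. Wild-type (WT) C57BL6/J mice aged 24 months formed a control group without heat exposure and a heat stress group. The study's methods give their sex as male. The heat stress group spent 3 hours per day on 15 days at 40 ± 0.5 °C, with the relative humidity held at 60 ± 5%. Each tissue gave 3 control and 3 heat stress libraries of messenger RNA, 12 libraries in all. The labels call the tissue brain without naming a region, and they do not tie a brain library to a liver library of the same animal.

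Thyroid hormone leaves the thyroid mainly as thyroxine (T4), which tissues convert to the active triiodothyronine (T3) by removing an iodine. Dio1 encodes the type 1 deiodinase, the main converting enzyme of liver, and Dio2 encodes the type 2 deiodinase, which makes T3 inside the brain, chiefly in astrocytes and tanycytes. T3 binds the nuclear receptors encoded by Thra and Thrb. Thrb is the main receptor of hepatocytes and Thra that of brain. Thrsp (Spot 14), a regulator of fatty acid synthesis, is a classic T3-induced gene of liver, and Hr, which encodes a corepressor that binds the receptors, is a classic T3-induced gene of brain. Crym encodes a protein of the cytosol that binds T3.

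Library totals ran from 10466198 to 15609040 counts. The labelled tissues carried their markers. Neuron markers summed to between 6436 and 8690 CPM (counts scaled to library size) in brain and to between 15.3 and 33.2 CPM in liver, while hepatocyte markers summed to between 79139 and 126949 CPM in liver and to between 3.64 and 18.3 CPM in brain. In liver, control library 1 and heat stress library 2 stood apart by transcripts of skeletal muscle. The 11 muscle markers summed to 519 CPM in the first and 2741 CPM in the second, against 1.21 to 8.52 CPM in the other libraries, and control library 1 also had the highest oligodendrocyte sum, 51.3 CPM against 15.4 to 23.2 CPM. The liver results of the members and lists are therefore also given without these libraries.

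Both deiodinases are selenoenzymes, in which an in-frame TGA codon is read as selenocysteine in the active site. The 45 coding bases around the first such codon are shown for the pair because they carry the feature that the enzymes share, with the TGA in capitals, from GENCODE M21 transcripts (Dio1 at chr4:107297679-107297723 and Dio2 at chr12:90729802-90729846, both on the minus strand of GRCm38).
Dio1: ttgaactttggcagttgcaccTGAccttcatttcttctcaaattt
Dio2: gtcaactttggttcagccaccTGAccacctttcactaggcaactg
The codon is number 126 of Dio1 and number 130 of Dio2, and 25 of the 45 bases (55.6%) were the same at the same position. The 2 genes had opposite tissue patterns in the counts.

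Dio1 had 0 counts in each of the 6 brain libraries, which at 3 counts allows at most 0.206 to 0.283 CPM per library. In control liver it had 2641, 2635 and 1639 counts. Set against the limit of 3 counts in each brain library, the level per library total in control liver was at least 768-fold higher. Dio2 showed the opposite pattern, with 1552, 1349 and 1013 counts in control brain and 5, 0 and 0 counts in control liver. The ratio of its summed counts per library total was 776 in favour of brain, with an exact 95% interval from 332 to 2391 that covers counting error only. All 5 counts of control liver were in library 1, the control library with muscle transcripts, so the size of the ratio rests on that library.

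The scale common to both tissues bears on each comparison between them. TMM, which sets libraries level over most genes, scaled the library totals by 1.41 to 1.51 in brain and by 0.622 to 0.722 in liver, and so lowered brain levels against those of liver. On that scale the Dio1 bound was 1629-fold, and the Dio2 ratio was 362 with an interval from 155 to 1116. The median log2 difference over all genes tested was 0.24 with TMM and 1.33 with library totals only, a setting chosen after seeing the data.

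Among the 6 genes that could be tested between the control tissues, 5 differed at an adjusted p-value under 0.05 by edgeR's quasi-likelihood test, where 80.4% of the 15824 genes tested did so. Dio2 (log2 difference, brain over liver, 8.44, SE 0.47, adjusted p = 1.36e-09), Thra (4.93, SE 0.39, adjusted p = 4.66e-08), Crym (4.63, SE 0.34, adjusted p = 1.98e-08) and Hr (4.15, SE 0.46, adjusted p = 1.54e-06) were higher in brain. Thrsp was higher in liver, with a log2 difference of -6.54 (SE 0.39, adjusted p = 2.26e-09). Thrb was the exception, with a log2 difference of -0.20 (SE 0.15, 95% interval -0.52 to 0.11, adjusted p = 0.217), though without brain control library 1 the difference was -0.38 at an adjusted p of 0.0354. The direction of Thrb turned with the scaling. With library totals only it was higher in brain, at 0.89 (SE 0.15, adjusted p = 5.61e-05), where 84.8% of all genes differed, so no order of the tissues is given for it. The other members kept their direction on that scale, at 9.50 for Dio2, 6.05 for Thra, 5.73 for Crym, 5.26 for Hr and -5.45 for Thrsp. Without liver control library 1 the TMM value was 5.55 for Thra, 5.06 for Crym, 4.84 for Hr, -6.42 for Thrsp and -0.14 for Thrb, and control liver held 0 counts of Dio2.

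Levels of different genes were compared per length of annotated exon, as counts scaled to exon length and TMM library size over both tissues (RPKM), so that orders are read within a tissue. In control liver the mean per-length levels were 737 for Thrsp, 134 for Dio1, 5.42 for Thrb, 3.32 for Thra, 0.432 for Crym, 0.243 for Hr and 0.0295 for Dio2. The 3 libraries of Thrsp, of Dio1 and of Thrb lay apart from one another, whereas the libraries of Thrb and Thra overlapped, as did those of Crym and Hr and those of Hr and Dio2. In control brain Thra led with a mean per-length level of 102, followed by Dio2 with 11.997, Crym with 11.0, Thrsp with 7.94, Thrb with 4.70 and Hr with 4.40. Thra stood apart from all the others in brain. Dio2 and Crym overlapped, as did Crym and Thrsp, and Thrb and Hr. The order depended on the length used. With the longest transcript in place of all exons, control brain had 192 for Thra, 13.9 for Crym, 12.4 for Thrsp, 11.997 for Dio2, 5.62 for Thrb and 5.43 for Hr, which moved Dio2 from the second place to the fourth. In control liver the receptors were then nearly level, at 6.47 for Thrb and 6.25 for Thra. Thra was thus far above Thrb per length in brain under both lengths, while no order of the receptors could be read in liver.

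**Figure D1:**
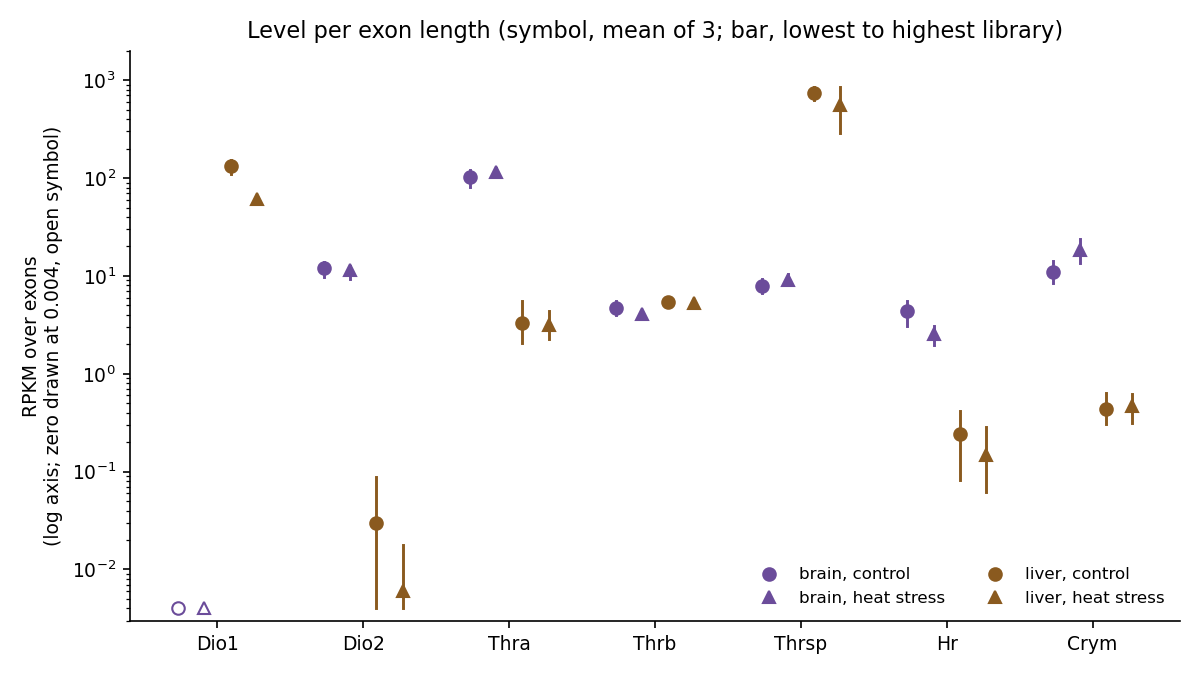
Level per exon length of the 7 genes in RPKM (vertical log axis) in control (circles) and heat stress (triangles) brain and liver, with the symbol at the mean of 3 libraries and the bar from the lowest to the highest. Dio1 was at 0 in brain and at a mean of 134 in control liver, Dio2 at 11.997 in control brain and 0.0295 in control liver, and Thrb at 4.70 and 5.42.

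The comparison of heat stress with control asked which of these genes differ in aged mice after repeated heat. Dio1 was the member with the clearest difference. In liver its TMM-normalized level was 170.5, 215 and 153 CPM in the control libraries and 91.1, 80.5 and 76.2 CPM in the heat stress libraries. Every heat stress library lay below every control library. In liver the groups of 11.1% of all genes tested did not overlap, and 5.73% were lower in this way. The means were 179 ± 32.0 CPM (SD, n = 3) and 82.6 ± 7.65 CPM (SD, n = 3), 2.17-fold lower under heat stress by the fitted log2 fold change of -1.12 (SE 0.19, 95% interval -1.55 to -0.69). By edgeR's quasi-likelihood test the unadjusted p was 0.000171, and over all 12296 genes tested the Benjamini-Hochberg adjusted p was 0.132, which did not pass the threshold of 0.05.

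No gene passed that threshold in liver by edgeR, while 5.84% of the genes had an unadjusted p under 0.05, and DESeq2 on the same 6 libraries called 0.553% of 11397 genes. DESeq2 on all 12 libraries called 1.12% of genes in liver. Dio1 was among the DESeq2 calls, with an adjusted p of 6.67e-06. Without the 2 libraries with muscle transcripts, which leaves 2 libraries in each group, the log2 fold change was -1.15 and edgeR's adjusted p was 0.00735. In that fit 0.662% of 12239 genes passed. Without control library 1 alone the log2 fold change was -1.16 with an adjusted p of 0.0321, where 25 of 12519 genes passed. Over the libraries left out in turn the log2 fold change stayed between -1.22 and -0.97, with an adjusted p up to 0.961 without heat stress library 3. The column names of 1 control and 2 heat stress liver libraries end in "2nd". The log2 ratio of mean CPM was -1.36 among these and -1.01 among the others.

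**Figure D2:**
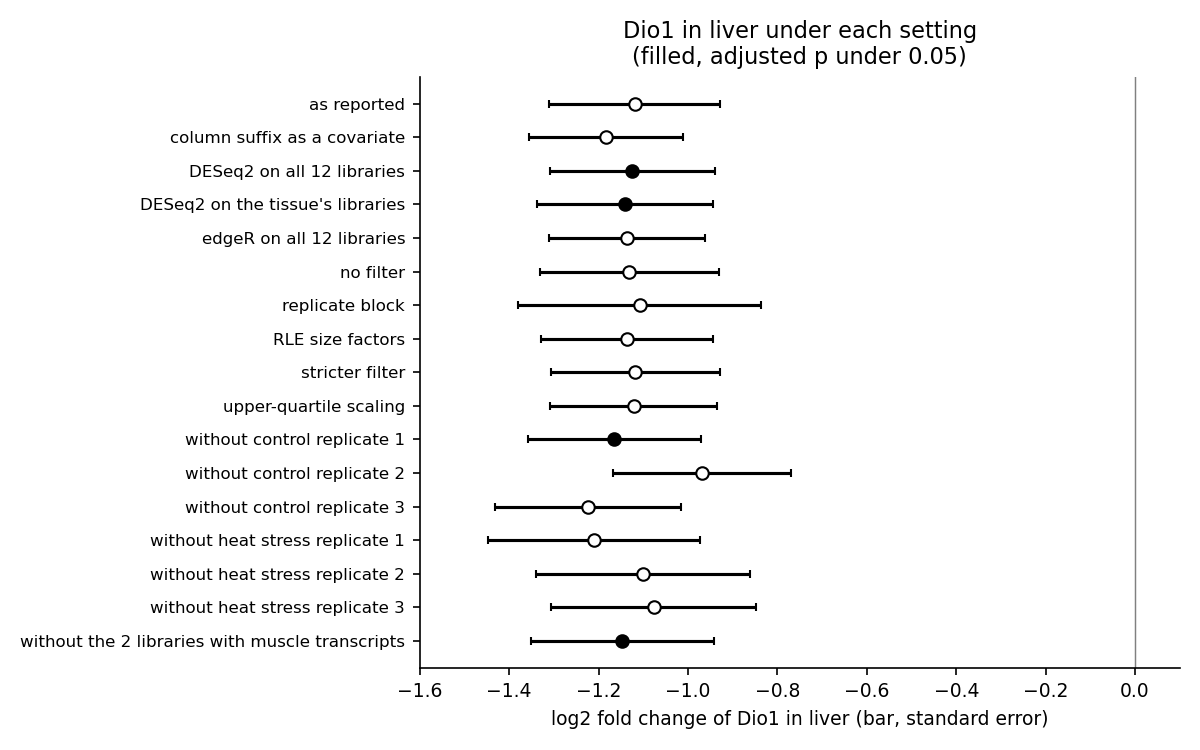
Log2 fold change of Dio1 in liver, heat stress over control (horizontal axis), with its standard error under each setting. Filled points have an adjusted p under 0.05, and every point lies between -1.22 and -0.97.

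Of 9 hepatocyte markers 0 had an unadjusted p under 0.05 and none was at 0. Without the 2 libraries with muscle transcripts 1 of the 9, Apoa1, was higher at an unadjusted p under 0.05, where 10.4% of 12239 genes had such a p in either direction. The sum of the 9 markers lay between 79139 and 123130 CPM in the control and between 95961 and 126949 CPM in the heat stress libraries. In bulk tissue, fewer cells of a type and less RNA per cell cannot be told apart. The 3 genes whose log2 CPM followed Dio1 most closely over the 6 liver libraries were Sec22b (Pearson's r 0.998), Slc30a1 (0.998) and Ttc41 (0.996), a description over libraries of both groups, where 168 of 12295 genes had an r above 0.9.

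Dio1 is at chr4:107291465-107307169 on the minus strand of GRCm38. The 250 bases before its start site (chr4:107307169-107307418) are shown because it is the member with the largest difference in liver. Beside them is the same window of Dio2 (chr12:90739039-90739288, minus strand), which had almost no counts in liver. Both are from RefSeq on GRCm38.p6, in gene orientation, with matches to TATAAA in capitals.
Dio1: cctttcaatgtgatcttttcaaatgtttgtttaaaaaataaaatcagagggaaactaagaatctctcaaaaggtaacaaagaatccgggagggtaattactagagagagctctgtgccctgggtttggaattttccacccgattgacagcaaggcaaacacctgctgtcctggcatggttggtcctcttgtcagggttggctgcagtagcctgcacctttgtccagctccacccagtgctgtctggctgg
Dio2: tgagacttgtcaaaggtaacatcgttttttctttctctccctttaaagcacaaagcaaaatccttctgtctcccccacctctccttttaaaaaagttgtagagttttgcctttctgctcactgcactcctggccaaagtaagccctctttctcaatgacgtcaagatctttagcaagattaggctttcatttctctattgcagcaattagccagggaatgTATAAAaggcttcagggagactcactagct
Dio2 had its TATAAA 30 bases before the RefSeq start site, and the Dio1 window held none. The GENCODE model of Dio2 used for its levels starts further downstream, at chr12:90738438. On either strand of 300-base promoter windows, TATAAA was found in 13.6% and AGGTCA, the half-site of thyroid hormone receptors and several other nuclear receptors, in 16.3% of 32851 windows. Of the 7 genes, 4 had such windows, and among their 5 windows AGGTCA was found once, 184 bases before a start site of Thrb. The direct repeat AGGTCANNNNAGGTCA was in none of the 5 and in 0.0152% of all windows.

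Thrsp, the T3-induced regulator of lipogenesis, was the most abundant member per length in liver and varied widely within the heat stress group. It had 1167, 981 and 1121 CPM in the control and 1285, 800.5 and 446 CPM in the heat stress libraries. Heat stress library 1 was the highest of the 6 and library 3 the lowest, so that the groups overlapped. The log2 fold change was -0.37 (SE 0.33, 95% interval -1.11 to 0.37, adjusted p = 0.947 by edgeR's quasi-likelihood test), with a range from -0.82 without heat stress library 1 to -0.08 without heat stress library 3. Without the 2 libraries with muscle transcripts it was -0.29 (adjusted p = 0.897). Idi1 (r 0.988), Slc23a1 (0.987) and Rims3 (0.985) followed it most closely over these 6 libraries.

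Thrb was nearly constant in liver, at 27.2, 26.3 and 28.1 CPM in the control and 26.7, 27.2 and 27.7 CPM in the heat stress libraries. The difference lay within the spread of each group, with a log2 fold change of 0.00 (SE 0.15, 95% interval -0.34 to 0.34, adjusted p = 0.999), and -0.01 (adjusted p = 0.989) without the 2 libraries with muscle transcripts.

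Thra, Crym and Hr, the brain members, were low in liver and were highest there in the libraries with muscle transcripts. Thra had 16.2, 6.77 and 7.46 CPM in control and 7.30, 13.7 and 8.91 CPM in heat stress liver. The 2 libraries above 13 CPM were control library 1 and heat stress library 2. The same libraries were the highest for Crym, which had 1.36, 0.734 and 0.839 CPM against 0.745, 1.39 and 1.10 CPM, and for Hr, with 1.81, 0.408 and 1.12 CPM against 0.298, 1.32 and 0.473 CPM. Dio2 had its only 6 liver counts there, 5 in control library 1 and 1 in heat stress library 2. The groups overlapped for each of these genes. Markers of brain cells were also highest in control library 1, where the 8 neuron markers summed to 33.2 CPM against 15.3 to 19.4 CPM in the other liver libraries, and the 10 cortex and hippocampus markers to 4.84 CPM against 0.298 to 1.30 CPM. Heat stress library 2, with the higher muscle sum, had 18.3 and 1.05 CPM of these.

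The log2 fold change in liver was -0.04 for Thra (SE 0.36, adjusted p = 0.996), 0.13 for Crym (SE 0.42, adjusted p = 0.984) and -0.67 for Hr (SE 0.64, adjusted p = 0.947). Without the 2 libraries with muscle transcripts the value of Thra turned to 0.17 (adjusted p = 0.869), that of Crym was 0.22 (adjusted p = 0.924), and Hr had too few counts to be tested. The value of Hr rested on single libraries, from -1.54 without heat stress library 2 to -0.09 without control library 1, and it was -0.14 with the column suffix as a covariate. Of the 11 muscle markers none was at 0 in all liver libraries, and the part of the muscle transcripts and of the brain cell markers in these levels was not tested further.

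**Figure D3:**
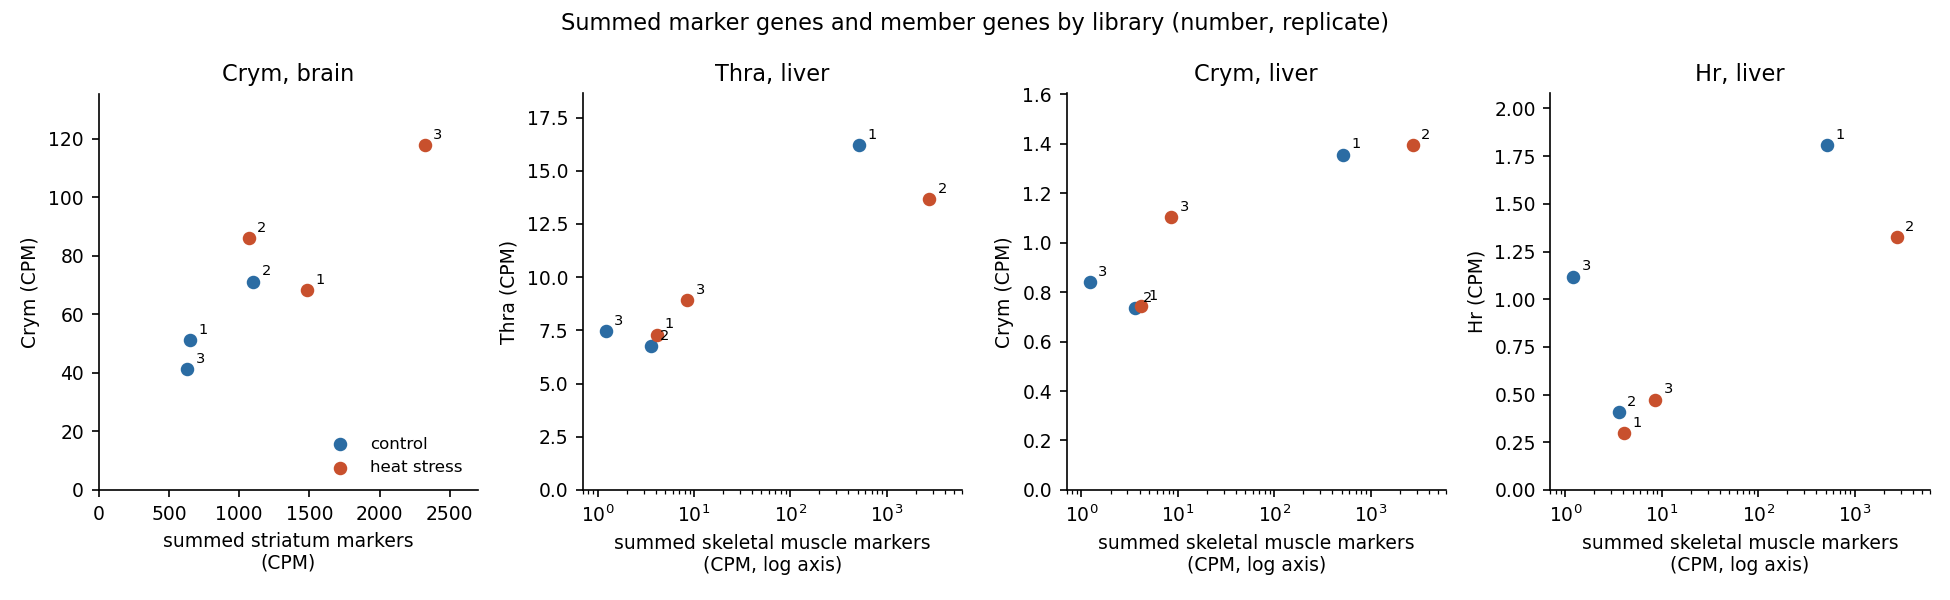
Level of Crym in brain against the summed striatum markers, and of Thra, Crym and Hr in liver against the summed skeletal muscle markers (log axis), in CPM with a point for each library. In liver, control library 1 (519 CPM of muscle markers) and heat stress library 2 (2741 CPM) had the highest level of all 3 genes, and in brain heat stress library 3 had the highest Crym (118 CPM) and the highest striatum sum (2321 CPM).

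Reads of Thra can also be shared with a neighbour. The last exons of Thra (chr11:98740638-98769006, plus strand) and of Nr1d1 (chr11:98767932-98775333, minus strand), a repressor of the circadian clock, overlap on opposite strands over 263 exon bases, 5.7% of the exon bases of Thra. Whether the counting used strand is not given in the sources used here. Nr1d1 had 70.0, 44.5 and 57.8 CPM in control and 59.6, 115 and 87.1 CPM in heat stress liver, a log2 fold change of 0.61 (SE 0.26, unadjusted p = 0.0430, adjusted p = 0.846). Heat stress library 2 was the highest for Nr1d1 and the second highest for Thra. Control library 1, the highest for Thra, lay below heat stress libraries 2 and 3 for Nr1d1. The part of shared reads in the liver level of Thra was not tested.

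In brain none of the 6 tested members passed the threshold by edgeR. Hr and Crym had an unadjusted p under 0.05, as did 20.1% of the 14806 genes tested, and no member had groups without overlap, where 24.9% of all genes did. DESeq2 on the 6 brain libraries called both at an adjusted p under 0.05, along with 4.66% of 11597 genes, and neither when all 12 libraries were fitted together, where it called 0.0633% of genes.

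Hr, the T3-induced corepressor gene, had 56.7, 31.4 and 45.3 CPM in control and 31.6, 20.1 and 26.9 CPM in heat stress brain. The groups overlapped by 1 library, since control library 2 lay just below heat stress library 1. The means were 44.5 ± 12.7 and 26.2 ± 5.79 CPM (SD, n = 3), with a log2 fold change of -0.77 (SE 0.23, 95% interval -1.28 to -0.25). The unadjusted p was 0.00794 and the adjusted p 0.170 by edgeR's quasi-likelihood test, and 0.0390 by DESeq2. Sv2a (r 0.998), a synaptic vesicle protein gene, Cntfr (0.997) and Pigt (0.996) followed Hr most closely over the 6 brain libraries, and 737 of 14805 genes had an r above 0.9. Marker lists were read in the same libraries. The 5 endothelium markers summed to 201, 103 and 117 CPM in control and 67.9, 85.5 and 67.7 CPM in heat stress brain, without overlap and highest in control library 1, as was Hr. The 10 cortex and hippocampus markers summed to 1852, 1205 and 1029 CPM against 893, 1110 and 1241 CPM, and were also highest in control library 1. Their sums overlapped, and 1 of the 10 was lower at an unadjusted p under 0.05, near the 10.0% of all genes. Of the 10 markers of habenula and thalamus 5 were lower at an unadjusted p under 0.05, as were 10.0% of all genes, and their median log2 fold change was -1.52. Their sum was 141, 150.2 and 577 CPM in control and 255, 146 and 99.8 CPM in heat stress brain, so that it overlapped and was highest in control library 3. None of these markers was at 0, and their part in the values of Hr and of the other lower genes of brain was not tested.

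Crym, the T3-binding protein gene, had 51.1, 71.1 and 41.4 CPM in control and 68.3, 86.0 and 118 CPM in heat stress brain. Here too the groups overlapped by 1 library, with control library 2 just above heat stress library 1. The means were 54.5 ± 15.2 and 90.7 ± 25.1 CPM (SD, n = 3), with a log2 fold change of 0.74 (SE 0.23, 95% interval 0.21 to 1.26). The unadjusted p was 0.0114 and the adjusted p 0.172 by edgeR's quasi-likelihood test, and 0.0426 by DESeq2.

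Crym is enriched in striatum, and markers of striatum were read in the same libraries. Of 13 striatum markers 12 were higher at an unadjusted p under 0.05, as were 10.0% of all genes. Of these, 6 were without overlap, among them Ppp1r1b and Drd1, where 12.9% of all genes were higher in this way, and none was at 0. Their sum was 653, 1101 and 632 CPM in control and 1484, 1069 and 2321 CPM in heat stress brain, so that it overlapped. Heat stress library 1 had a higher sum than heat stress library 2 but a lower level of Crym. With the mean of the striatum markers as a covariate, edgeR gave Crym a log2 fold change of 0.19 (SE 0.28, adjusted p = 0.933). That of Hr was -0.56 (SE 0.41, adjusted p = 0.914). Since 12 of the 13 markers differed between the groups, this covariate overlaps with heat stress itself. Over all 14806 genes, those with an unadjusted p under 0.05 fell from 2969 to 570. The fit therefore cannot separate the markers from heat stress. The gene whose level followed Crym most closely was Arpp21 (r 0.997), abundant in striatal neurons, followed by Bzw2 (0.993) and Tsks (0.990). Of 14805 genes 242 had an r above 0.9. The part of the striatum markers in the value of Crym was not tested further.

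Dio2 had 106, 118 and 82.0 CPM in control and 79.1, 109 and 107 CPM in heat stress brain. The groups overlapped fully, with a log2 fold change of -0.05 (SE 0.17, 95% interval -0.43 to 0.33, adjusted p = 0.882). Of 9 astrocyte markers 1, Aldh1l1, had an unadjusted p under 0.05, as did 20.1% of all genes. The sum of these markers lay between 4580 and 6381 CPM in control and between 4275 and 5424 CPM in heat stress. Control library 2 was the highest of its group and heat stress library 1 the lowest of its group for both Dio2 and this sum. The tanycyte markers Rax and Gpr50 summed to 0.548 to 2.22 CPM.

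The groups of both receptors overlapped in brain. Thra had 705, 818 and 542 CPM in control and 689, 870.4 and 794 CPM in heat stress, a log2 fold change of 0.19 (SE 0.18, 95% interval -0.21 to 0.59, adjusted p = 0.568). Thrb had 59.6, 50.7 and 42.4 CPM against 46.3, 41.2 and 46.6 CPM, a log2 fold change of -0.19 (SE 0.14, 95% interval -0.50 to 0.13, adjusted p = 0.464). Thrsp had 25.4, 29.8 and 21.1 CPM against 26.8, 33.5 and 28.0 CPM, a log2 fold change of 0.21 (SE 0.15, 95% interval -0.13 to 0.56, adjusted p = 0.452). In brain Nr1d1 had a log2 fold change of -0.25 (SE 0.16, adjusted p = 0.380), opposite in sign to that of Thra.

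**Figure D4:**
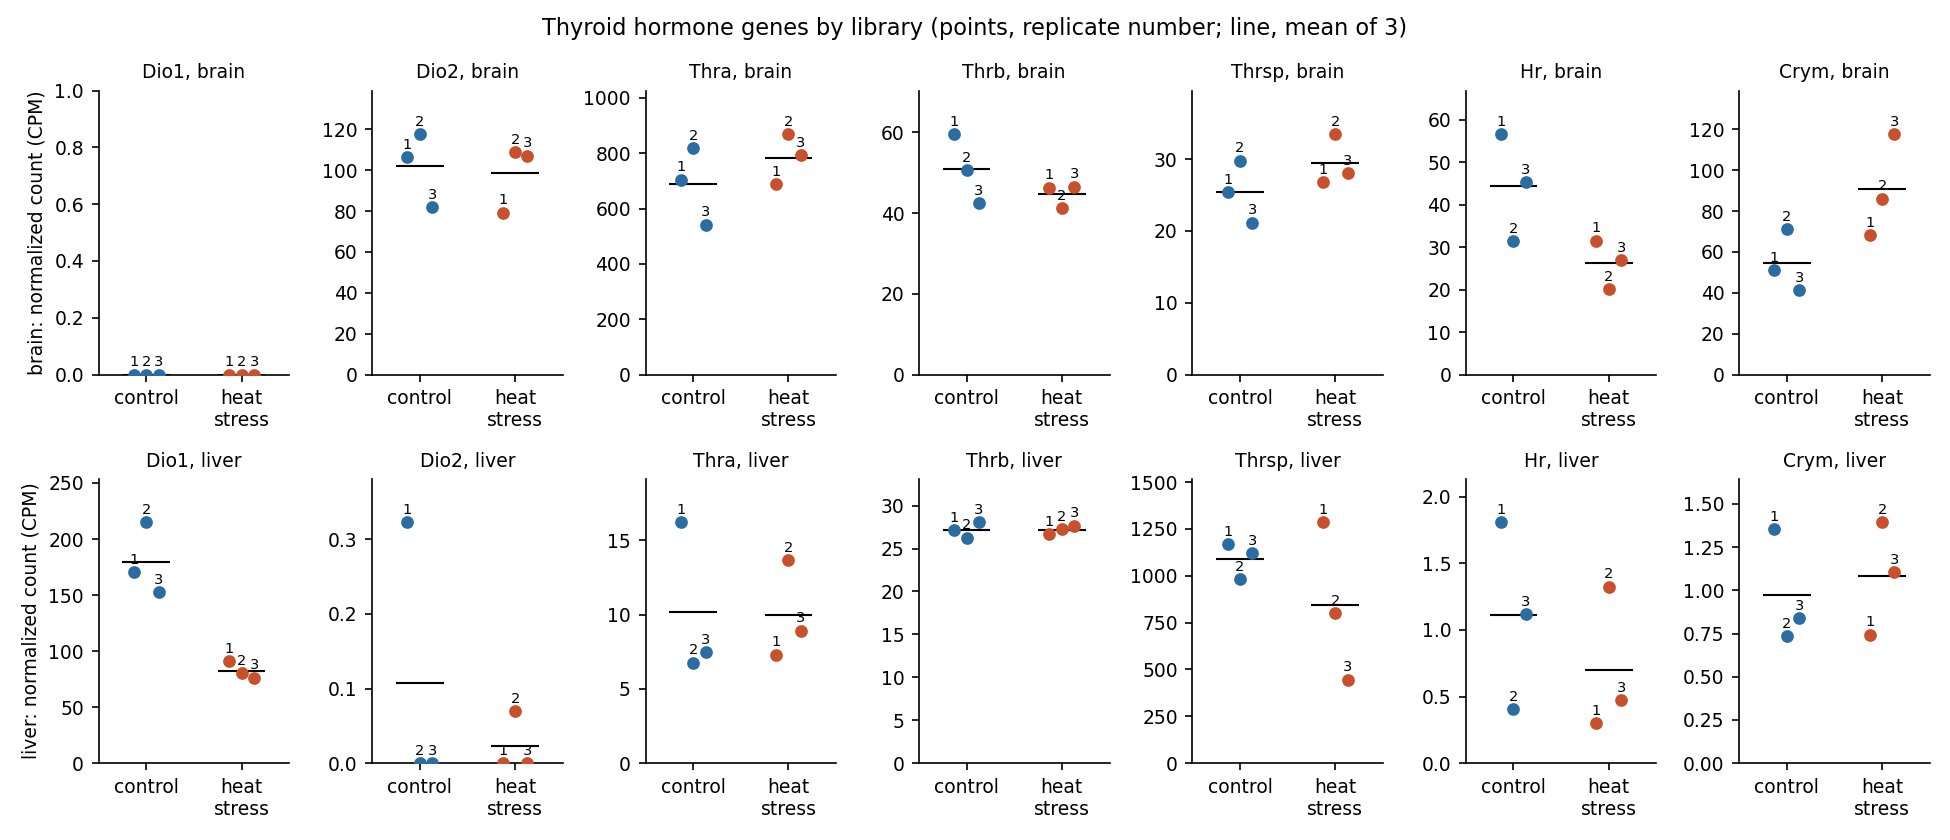
Normalized count (CPM, vertical axes from 0) of each gene in the control and heat stress libraries of brain (top) and liver (bottom), with replicate numbers at the points and a line at the mean of 3. Dio1 in liver is the panel in which both groups are well above 0 and do not overlap, at 153 to 215 CPM against 76.2 to 91.1 CPM.

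Whether the heat stress effect differed between the tissues was tested in a fit of all 12 libraries. None of the 5 genes tested in both passed by edgeR (1 of 15824 genes did, 0.00632%, and 9.64% had an unadjusted p under 0.05), and none passed by DESeq2. The difference, liver minus brain, was -0.26 (SE 0.48) for Thra, 0.18 (SE 0.21) for Thrb, -0.60 (SE 0.44) for Thrsp, 0.06 (SE 0.77) for Hr and -0.64 (SE 0.50) for Crym on the log2 scale, with adjusted p-values from 0.640 to 1. The unadjusted p-values were all above 0.05. Dio1, with 0 counts in brain, and Dio2, with 6 counts in all of liver, were below the count filter in that tissue and are given no such difference.

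**Figure D5:**
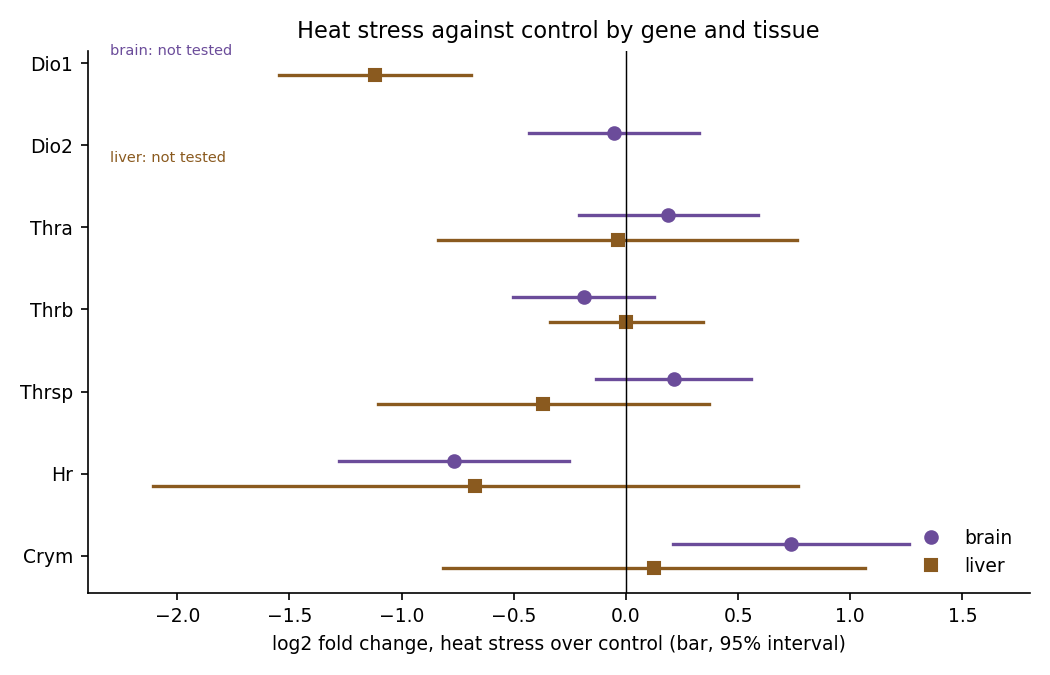
Log2 fold change, heat stress over control (horizontal axis), of each gene in brain (circles) and liver (squares) with its 95% interval. The intervals of Dio1 in liver (-1.55 to -0.69), Hr in brain (-1.28 to -0.25) and Crym in brain (0.21 to 1.26) do not cross 0.

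Other genes of the pathway were read from lists by role, and none passed the adjusted threshold in either tissue by edgeR on the 6 libraries of that tissue. In liver, 0 of 12 genes known as T3-responsive there had an unadjusted p under 0.05, with a median log2 fold change of -0.06 beside 0.01 over all genes tested. Cpt1a, which brings fatty acids into mitochondria, was higher without overlap, as were 5.38% of all genes (log2 fold change 0.36, unadjusted p = 0.0639). Pck1, of gluconeogenesis, had a value of 0.44 (unadjusted p = 0.123), Klf9, a direct T3 target, 0.25 (unadjusted p = 0.259) and Me1, the malic enzyme, -0.20 (unadjusted p = 0.420). Of the genes known as T3-responsive in brain, 7 were tested in liver. Of these 2 were lower at an unadjusted p under 0.05, as were 2.87% of all genes, among them Homer1 (-0.58, unadjusted p = 0.0479). Of the 16 lipogenic genes 1 had an unadjusted p under 0.05, near the 5.84% of all genes. This was Pnpla3, with a log2 fold change of -1.16 (unadjusted p = 0.0423). Mid1ip1, the paralogue of Thrsp, had a value of -0.55 (unadjusted p = 0.0858) and Pklr 0.52 (unadjusted p = 0.133).

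Genes that inactivate, conjugate or transport the hormone were read in the same way in liver. Of 5 tested inactivating or conjugating enzymes, the sulfotransferase Sult1c2 was higher without overlap (as were 5.38% of all genes), at 6.26, 5.79 and 5.87 CPM in control and 7.45, 9.62 and 10.4 CPM in heat stress (log2 fold change 0.61, unadjusted p = 0.0158, adjusted p = 0.743). Sult1b1 had a value of 0.23 (unadjusted p = 0.345) and Iyd, which recovers iodide, 0.15 (unadjusted p = 0.419). Dio3, the inactivating deiodinase, was not tested in liver, where no library exceeded 0.0815 CPM. Of 10 transporters tested 0 had an unadjusted p under 0.05, with values of 0.32 for Slco1a4 (unadjusted p = 0.0822, without overlap), 0.27 for Slc10a1 and -0.18 for Slc16a10.

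The carriers of thyroid hormone in plasma are made in liver, and 0 of 3 had an unadjusted p under 0.05, with log2 fold changes of 0.26 for Ttr, 0.41 for Serpina7 (thyroxine-binding globulin) and 0.15 for Alb. Of the 7 genes of selenoprotein synthesis 0 had an unadjusted p under 0.05, and the smallest p-values were those of Secisbp2 (-0.20, unadjusted p = 0.282), Sepsecs (-0.12, 0.508) and Trnau1ap (0.13, 0.572). Of 17 receptor partners and coregulators 0 did so, with the smallest p-values for Rxrb (0.27, unadjusted p = 0.181), Med1 (-0.20, 0.263) and Gps2 (0.30, 0.266). Of the 14 clock genes tested, Nr1d1 included, 6 were higher and 2 lower at an unadjusted p under 0.05, against 2.97% and 2.87% of all genes.

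Without the 2 libraries with muscle transcripts, 10.4% of 12239 genes had an unadjusted p under 0.05 in liver. The genes known as T3-responsive in liver (11 tested), the transporters, the plasma carriers and the receptor partners again had 0. Among the inactivating or conjugating enzymes there were 2, Sult1c2 and the glucuronidating enzyme gene Ugt1a1, both higher. There was 1 gene of selenoprotein synthesis, the elongation factor gene Eefsec, which was higher, and there were 2 lipogenic genes, Pklr, which was higher, and Mlxipl, a transcription factor gene of lipogenesis, which was lower. Pnpla3 was not among them. Of the genes known as T3-responsive in brain, 1 of 7, Homer1, was lower. Ugt1a1, Eefsec and Mlxipl are named after their values were seen. Of the 14 clock genes 7 were higher and 2 lower, and 3 passed the adjusted threshold, as did 0.662% of all genes.

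In brain, 4 of 7 transporters tested were lower at an unadjusted p under 0.05, where 10.0% of all genes were. Slco1c1, the T4 transporter of the blood-brain barrier, had 80.0, 62.2 and 70.3 CPM in control and 47.3, 56.1 and 46.7 CPM in heat stress (log2 fold change -0.50, SE 0.13, unadjusted p = 0.00374, adjusted p = 0.170). Its groups did not overlap, and 1774 of 14806 genes were lower in this way. Slc3a2 and Slc7a5, the subunits of an amino acid transporter that also carries thyroid hormone, had log2 fold changes of -0.37 (unadjusted p = 0.0284) and -0.46 (unadjusted p = 0.0450). Endothelium markers moved with them. All 5 were lower at an unadjusted p under 0.05 and none was at 0, with a sum of 103 to 201 CPM in control and 67.7 to 85.5 CPM in heat stress, and their part in the transporter values was not tested.

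Ttr, which carries T4 in cerebrospinal fluid, was lower in brain without overlap, as were 1774 of 14806 genes, at 1448, 1159 and 2325 CPM in control and 591, 1057 and 227 CPM in heat stress (log2 fold change -1.40, SE 0.50, unadjusted p = 0.0237, adjusted p = 0.199). It is a gene of choroid plexus, and 5 of 9 choroid plexus markers, Ttr included, were lower at an unadjusted p under 0.05, where 10.0% of all genes were. The sum of these markers, with Ttr again included, was 1261 to 2511 CPM in control and 264 to 1140 CPM in heat stress. Ttr made up most of this sum in every library, so the sum largely repeats its values. None of the markers was at 0, and the part of the others in the value of Ttr was not tested. Of the other carriers Alb had a value of 1.11 (unadjusted p = 0.194) and Serpina7 had 0 counts in every brain library.

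Of the 17 receptor partners and coregulators in brain, 6 were lower and 1 higher at an unadjusted p under 0.05, where 10.0% of all genes were lower and as large a share higher. The coactivator gene Ep300 was lower without overlap, as were 1774 of 14806 genes (log2 fold change -0.47, SE 0.12, unadjusted p = 0.00305). Rxrg, a heterodimer partner, was the one that was higher, at 8.09, 17.2 and 6.39 CPM in control and 25.3, 18.004 and 38.7 CPM in heat stress (1.38, SE 0.39, unadjusted p = 0.00657). The library order of Rxrg resembled that of the striatum sum, with heat stress libraries 3 and 1 the highest of both.

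Of the 7 genes of selenoprotein synthesis in brain, 3 were higher at an unadjusted p under 0.05 (as were 10.0% of all genes), Trnau1ap (log2 fold change 0.54, unadjusted p = 0.00393), Pstk (0.43, 0.00708) and Sephs2 (0.32, 0.0461). Of 15 tested genes known as T3-responsive in brain 1 was lower (10.0% of all genes were), the neurofilament gene Nefm (-0.70, SE 0.19, unadjusted p = 0.00526, without overlap), and 1 was higher, Rasd2 (0.66, SE 0.24, unadjusted p = 0.0229), which is also among the striatum markers. Nefh had a value of -0.65 (unadjusted p = 0.0518) and Klf9 of 0.00 (SE 0.12). The median of these 15 was -0.12, beside 0.00 over all genes tested. Of the genes known as T3-responsive in liver, 7 were tested in brain and 3 of them were lower at an unadjusted p under 0.05, all without overlap, where 10.0% of all genes were lower at that p and 1774 of 14806 were lower without overlap. These were Fasn, the fatty acid synthase gene (-0.56, unadjusted p = 0.00348), Acaca, the acetyl-CoA carboxylase gene (-0.42, 0.00611), and Cpt1a (-0.43, 0.00946), and the median of the 7 was -0.34. Fasn and Acaca are also lipogenic genes, of which 3 of 15 were lower in brain, the third being Srebf1 (-0.28, unadjusted p = 0.0277). Of 4 tested inactivating or conjugating enzymes 0 had an unadjusted p under 0.05, with log2 fold changes of -0.75 for Sult1c2, -0.90 for Iyd, 0.48 for Sult1a1 and 0.19 for Dio3. In the pituitary and thyroid axis, 3 of 8 genes had enough counts in brain and 0 in liver, and Slc5a5 (0.20), Trhr (0.74) and Trh (-0.30) had unadjusted p-values above 0.2.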

How the data were processed

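The authors deposited raw counts of reads by gene symbol for each library. For the counting, their methods name HISAT2 on mm10 with featureCounts in one place and Tophat2 with HTSeq in another. The submitters' processing notes list FastQC 0.11.9, Trimmomatic 0.39, HISAT2 2.2.1, Subread 2.0.1 and DESeq2 1.22.2. The libraries were stranded, and the annotation, the use of strand and the treatment of shared reads are not given in the sources used here. Deposited tables of DESeq2 log2 fold changes and p-values were not used.

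Each tissue was fitted alone for heat stress against control (R 4.3.3, edgeR 4.0.16, quasi-likelihood test with robust estimates, TMM, filterByExpr at count 10 and total 15, Benjamini-Hochberg adjustment over all genes tested, threshold 0.05). Of the members 6 passed the filter in each tissue. A fit of 4 groups tested tissues and the difference in effect. Standard errors are log2 fold changes divided by the root of the F statistic. CPM are TMM-scaled within a tissue, and levels per length use the union of GENCODE M21 exons, scaled over 12 libraries. Members and lists were chosen with earlier results of these data known. Named genes are the members, Nr1d1, the 3 genes of each pathway list with the smallest p per tissue, Dio3, Slco1c1, Klf9, Me1, Ttr and Serpina7, and the 3 nearest genes by correlation of log2 CPM (prior count 2). Some genes that qualified are not reported here. Nothing states pooling or repeat sampling, so p-values measure the spread between these libraries. A single value in 3 against 3 libraries cannot go below an exact permutation p of 0.1. Floors are 3 counts and cover counting error. Alternatives were DESeq2 1.42.0, other scalings, filters, samples and covariates, the replicate block and each library left out, and, chosen after seeing the data, library totals in place of TMM between tissues and the liver lists without 2 libraries. The fits were tested on simulated data.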

Additional observations from a re-analysis of the deposited data

How the results depend on the processing

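Of 353 tests of single genes under the alternatives, 319 kept their direction and side of the threshold. In brain the count of genes at an adjusted p under 0.05 was 0 with edgeR. DESeq2 gave 540 from the 6 brain libraries and 9 from all 12. From the former it called 2 members, Hr (-0.77) and Crym (0.73), and the cause was not tested. In liver the count was 0, and DESeq2 gave 63 from the 6 liver libraries and 163 from all 12. With edgeR it was 14 on all 12, 8 without a filter, 2 with upper-quartile scaling, 6 with the column suffix as a covariate, 81 without the 2 libraries with muscle transcripts and 0 to 25 with a library left out, the most without control library 1. The member called was Dio1, at -1.12 and -1.14 with DESeq2 on all 12 and on the liver libraries, -1.15 without the 2 libraries and -1.16 without control library 1. Without the 2 libraries 5 members were tested, and DESeq2 on the liver libraries gave Hr and Crym no adjusted p. With each of the other 5 libraries left out Dio1 was not called, at -1.22 to -0.97.

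Values near 0 changed sign. Dio2 in brain ranged from -0.19 to 0.075 with a library left out. Thra in liver ranged from -0.33 to 0.48 and was 0.22 with the suffix covariate and 0.17 without the 2 libraries. Thrb in liver ranged from -0.025 to 0.024, and was -0.0048 and -0.019 with DESeq2 on all 12 and on the liver libraries, -0.020 with edgeR on all 12, -0.012 without a filter, -0.016 with RLE, -0.0040 with upper-quartile scaling and -0.013 without the 2 libraries. Crym in liver ranged from -0.10 to 0.45. For the difference between tissues, the count of 1 gene became 43 with DESeq2, 0 with RLE and 0 to 4 with a library left out, Thra ranged from -0.59 to 0.35 and Hr from -0.85 to 0.75. Thrb between control tissues ranged from -0.38 to -0.11 with a library left out and was 0.89 with library totals only.

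To look for pairing by number, the mean of its group was first taken from the log2 CPM of each gene. The deviations of same-numbered control and heat stress libraries then correlated at -0.289, 0.19 and -0.2 in brain. In liver they correlated at -0.584, -0.509 and -0.0891. With 3 libraries per group these values cannot decide whether libraries were paired, and the labels give only a number. With the replicate block 1 gene was called in liver and 0 for the difference between tissues, where Thra in liver was 0.038, and no member was called within a tissue. Counts were at or near 0 for Dio1 in brain and Dio2 in liver, and low for Hr and Crym in liver.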
